A study of Mus musculus with 12 samples.

Results

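Ligands and receptors of the CXC chemokine system were followed in mouse colorectal tumours grown in the liver: the ligands Cxcl1, Cxcl2, Cxcl3, Cxcl5, Ppbp, Pf4 and Cxcl12, and the receptors Cxcr4 and Ackr3. They were chosen by gene symbol, as the array rows whose single platform symbol is one of these names, and each had 1 row, so that the 9 genes are 9 of the 22180 genes with a symbol of their own. The family was taken up because Cxcl3 is among the largest differences between tumours of fatty and healthy liver. The values that chose it are therefore those of the comparison between the livers, and in that comparison the levels below are a description with no test. The treatment comparisons were not used in the choice and are tested.

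Tumours of 4 groups were profiled on 1-colour expression arrays, with 3 arrays in each group and 12 in all: those of fatty liver under anti-VEGF, of fatty liver under vehicle, of healthy liver under anti-VEGF and of healthy liver under vehicle. Anti-VEGF treatment blocks vascular endothelial growth factor, the main growth signal of blood vessels, and every group carried injected colorectal cancer. Each group came from 3 mice by the study's design text. The sources used here give neither the strain, sex and age of the mice nor the cancer line, the way the liver was made fatty or the duration of treatment. All values are on the log2 scale of the deposited table, so that differences are log2 ratios of signal, and levels of one gene are not set against levels of another because probes differ in brightness; where the brightest rows of a marker list are named, this does not rank their RNA.

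Chemokines are small secreted proteins that guide white blood cells along a gradient, and the CXC branch is named after the spacing of its first cysteines. Cxcl1, Cxcl2, Cxcl3 and Cxcl5, together with the processed form of Ppbp, carry a short glutamate-leucine-arginine motif and act on the receptor Cxcr2, the main route by which neutrophils are called into inflamed tissue; their genes are induced by interleukin-1 and tumour necrosis factor through NF-kB. Pf4 lacks that motif and is best known, like Ppbp, as a content of platelet granules, although macrophages can express both genes. Cxcl12 is made by stromal and endothelial cells, signals through Cxcr4, which most white blood cells carry, and is taken up and removed by Ackr3, an atypical receptor. The 9 genes are thus a wider set than neutrophil attractants alone.

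The promoters of Cxcl1, Cxcl2 and Cxcl3 are shown because these closely related genes lie close together and because a match to an NF-kB binding motif, written GGG, then any 2 bases, then TTTCC, was found in all 3. Each line gives the 250 bases before the start of the gene from RefSeq (GRCm38.p6), 5′ to 3′ on the plus strand, at chr5:90785851-90786100 for Cxcl3, chr5:90890995-90891244 for Cxcl1 and chr5:90903649-90903898 for Cxcl2, with motif matches in capitals.
Cxcl3: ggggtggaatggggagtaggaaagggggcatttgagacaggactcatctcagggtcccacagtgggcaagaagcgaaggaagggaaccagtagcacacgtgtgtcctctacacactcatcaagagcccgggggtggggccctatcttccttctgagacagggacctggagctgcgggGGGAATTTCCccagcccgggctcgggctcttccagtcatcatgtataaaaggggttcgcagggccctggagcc
Cxcl1: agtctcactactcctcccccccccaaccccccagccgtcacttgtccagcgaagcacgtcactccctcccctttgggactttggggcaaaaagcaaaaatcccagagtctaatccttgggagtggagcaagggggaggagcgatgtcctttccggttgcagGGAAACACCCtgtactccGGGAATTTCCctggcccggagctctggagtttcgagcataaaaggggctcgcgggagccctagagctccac
Cxcl2: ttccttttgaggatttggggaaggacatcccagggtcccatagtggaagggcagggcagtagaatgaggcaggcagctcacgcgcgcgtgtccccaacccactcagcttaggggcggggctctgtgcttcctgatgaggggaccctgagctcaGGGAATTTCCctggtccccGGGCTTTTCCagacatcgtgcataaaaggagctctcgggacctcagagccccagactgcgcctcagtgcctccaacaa
In Cxcl3 the match GGGAATTTCC ran from 73 to 64 bases before the start, and a TATAAA followed at 30 to 25 bases before it. Cxcl1 had the same letters from 71 to 62 bases before the start and a further match, GGGTGTTTCC read on the opposite strand, from 89 to 80. Cxcl2 had GGGAATTTCC from 97 to 88 and GGGCTTTTCC from 78 to 69. Searched on both strands, the NF-kB motif was present in 464 of 32851 promoter windows of the same length, or 1.41%; TATAAA, searched on the strand of the gene, was present in 7.59%. Promoter windows were found for 8 of the 9 genes, and none of Ppbp, Pf4, Cxcl12, Cxcr4 and Ackr3 had a match to the NF-kB motif. A match is a string of letters and not a measured binding site.

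Several arrays stood apart. Within the groups, pairs of arrays differed over all genes by an SD of 0.148 to 0.163 log2 units among the 3 tumours of healthy liver under anti-VEGF, between vehicle arrays 1 and 3 of fatty liver, and between vehicle arrays 1 and 3 of healthy liver; the other pairs differed by 0.391 to 0.636. Whether the near-identical arrays come from separate mice was not tested; if they do not, the SDs, SEs and p-values given for 3 arrays understate the spread between mice. In Cxcl3, anti-VEGF array 3 of fatty liver differed from the mean of the other 2 arrays of its group by -4.24, and vehicle array 2 of healthy liver by 1.85. They are the lowest array of fatty liver and the highest of healthy liver in Cxcl3. Chosen after the values were seen, they are left out below. Leaving them out widens the difference between livers in any gene that follows Cxcl3, so calls gained that way are no independent support. Vehicle array 2 of fatty liver, which differed by 1.26, was kept. Xist, which is transcribed from the inactive X chromosome, was at 8.10 or above on vehicle arrays 1 and 3 of both livers and at 4.32 or below on the other 8 arrays. Without the arrays high in Xist each vehicle group keeps 1 array and the spread comes from the anti-VEGF groups, so that counts under that setting say little about a vehicle group. Of 12 colorectal epithelial markers, Krt8 was high (9.12 to 10.82), whereas Epcam reached at most 3.78 and Krt19, Krt20, Vil1, Cldn7 and Cdh17 also stayed below 4.93, the median of all values in the table, which is used below as the limit for low values. The hepatocyte marker Alb reached at most 4.07. Of 6 tested epithelial markers 1 rose and 2 fell in fatty liver under each treatment, and of 3 tested hepatocyte markers 1 rose under vehicle and 1 fell under anti-VEGF. Without the 2 arrays that departed in Cxcl3, Lgals4 (epithelial) and Ass1 (hepatocyte) also rose under anti-VEGF. Genes were tested if they lay above 4.93 on at least 3 arrays, which 13286 genes did, all 9 members among them.

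Cxcl3, a neutrophil attractant, had log2 values of 9.86, 8.83 and 5.10 in tumours of fatty liver under anti-VEGF and 8.83, 10.13 and 8.92 in tumours of fatty liver under vehicle, against 4.61, 4.87 and 4.55 in tumours of healthy liver under anti-VEGF and 4.62, 6.51 and 4.70 in tumours of healthy liver under vehicle. On 5 of the 6 arrays tumours of fatty liver were high, anti-VEGF array 3 was close to the tumours of healthy liver, and within each treatment the livers did not overlap. The means ran from 9.29 ± 0.73 (fatty, vehicle) through 7.93 ± 2.50 (fatty, anti-VEGF) and 5.28 ± 1.07 (healthy, vehicle) to 4.68 ± 0.17 (healthy, anti-VEGF; SD, n = 3 each), and arrays of each neighbouring pair in that order overlapped. The difference between fatty and healthy liver was 4.01 (SE 1.01; 16.1-fold) under vehicle and 3.25 (SE 1.01; 9.54-fold) under anti-VEGF, which placed Cxcl3 6th and 70th from the top among the 13286 genes. Leaving out 1 array at a time, the first ran from 3.59 (without vehicle array 2 of fatty liver) to 4.63 (without vehicle array 2 of healthy liver). The second ran from 2.29 (without anti-VEGF array 1 of fatty liver) to 4.67 (without anti-VEGF array 3 of fatty liver). Because the tumours of healthy liver lay at or below the limit of 4.93 on 5 of 6 arrays, Cxcl3 passed the filter on low values through the tumours of fatty liver.

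**Figure D1:**
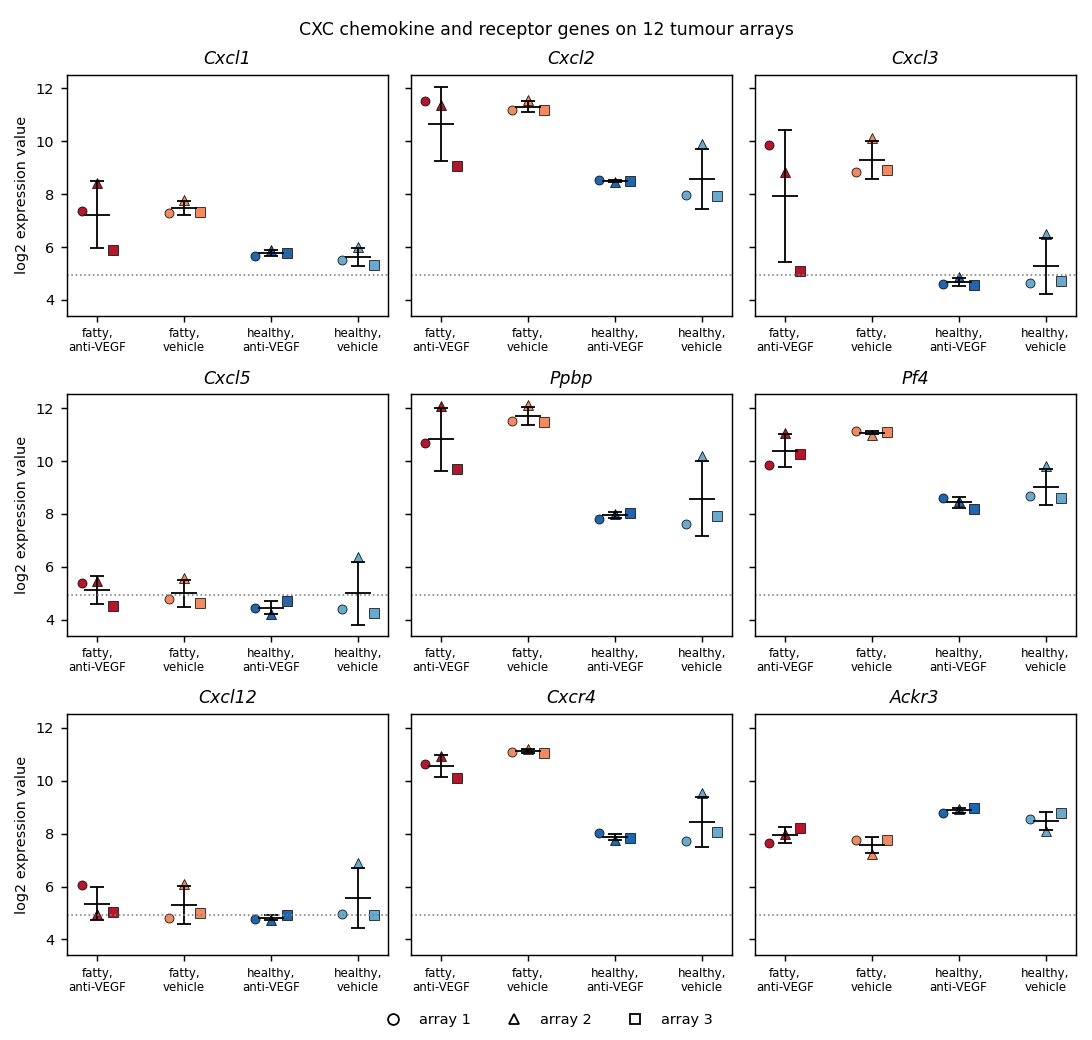
Log2 value of each of the 9 genes (vertical axes) on every array, in 4 groups from left to right: fatty liver with anti-VEGF, fatty liver with vehicle, healthy liver with anti-VEGF and healthy liver with vehicle. Points are arrays, bars are the mean ± SD of 3 arrays, and the dotted line is the limit of 4.93; Cxcl3 lies between 8.83 and 10.13 on 5 of the 6 fatty liver arrays and at 5.10 on the other.

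Cxcl2, which shares the receptor Cxcr2, read 11.51, 11.38 and 9.05 in fatty liver under anti-VEGF and 11.17, 11.55 and 11.20 in fatty liver under vehicle, against 8.52, 8.46 and 8.50 in healthy liver under anti-VEGF and 7.96, 9.90 and 7.91 in healthy liver under vehicle. Both fatty liver groups lay wholly above the healthy liver group of the same treatment, with vehicle array 2 the highest of the healthy liver. The means were ordered 11.30 ± 0.21 (fatty, vehicle), 10.65 ± 1.39 (fatty, anti-VEGF), 8.59 ± 1.13 (healthy, vehicle) and 8.49 ± 0.03 (healthy, anti-VEGF), and the arrays of each neighbouring pair overlapped. Fatty exceeded healthy liver by 2.72 (SE 0.65) under vehicle and by 2.15 (SE 0.65) under anti-VEGF.

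Cxcl1, the neighbour of Cxcl2 on the chromosome, was at 7.35, 8.42 and 5.90 in fatty liver under anti-VEGF and 7.29, 7.78 and 7.33 in fatty liver under vehicle, against 5.67, 5.89 and 5.78 in healthy liver under anti-VEGF and 5.52, 5.999 and 5.33 in healthy liver under vehicle. The groups of the 2 livers did not overlap within a treatment, although fatty liver anti-VEGF array 3 cleared the highest healthy liver array of that treatment by 0.01. Mean levels were 7.22 ± 1.26 (fatty, anti-VEGF), 7.47 ± 0.27 (fatty, vehicle), 5.78 ± 0.11 (healthy, anti-VEGF) and 5.62 ± 0.35 (healthy, vehicle), with overlap between the treatments of each liver. Its differences between fatty and healthy liver, 1.85 (SE 0.48) under vehicle and 1.45 (SE 0.48) under anti-VEGF, were the smallest of the 3.

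Cxcl5, a further member of the same branch, had values of 5.40, 5.48 and 4.52 in fatty liver under anti-VEGF and 4.78, 5.59 and 4.64 in fatty liver under vehicle, against 4.46, 4.20 and 4.71 in healthy liver under anti-VEGF and 4.39, 6.35 and 4.24 in healthy liver under vehicle. Values above the limit were found on 4 of the 12 arrays, the highest of them was vehicle array 2 of healthy liver, and fatty and healthy liver overlapped under both treatments. In order of level, the means were 5.13 ± 0.53 (fatty, anti-VEGF), 5.001 ± 0.51 (fatty, vehicle), 4.99 ± 1.18 (healthy, vehicle) and 4.46 ± 0.26 (healthy, anti-VEGF), and the arrays of each neighbouring pair overlapped. The difference between fatty and healthy liver was 0.01 (SE 0.51) under vehicle and 0.68 (SE 0.51) under anti-VEGF. Without vehicle array 2 of healthy liver the vehicle difference was 0.69.

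In centred values Cxcl5 lay closer to Cxcl12 than to its own branch, by a measure that depends on the size of each gene's changes. After each gene was centred on its own mean over the 12 arrays, the root mean square difference between Cxcl5 and Cxcl12 was 0.320, the smallest among the 36 pairs of the 9 genes, whereas Cxcl5 and Cxcl3 were 1.92 apart and Cxcl1 and Cxcl2 0.605. Cxcl3 had the widest range over the 12 arrays, 5.58 log2 units, and Ackr3 the narrowest, 1.74. Cxcl5 and Cxcl12 each ranged over 2.15 and were above the limit on 4 and 7 arrays. Both were highest on vehicle array 2 of healthy liver, by 2.04 and 1.97 over the mean of arrays 1 and 3 of that group. Array 1 minus array 2 of fatty liver under anti-VEGF was -0.07 for Cxcl5 and 1.09 for Cxcl12.

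Ppbp, whose product is cleaved to the neutrophil attractant of platelet granules, had values of 10.68, 12.07 and 9.71 in fatty liver under anti-VEGF and 11.53, 12.11 and 11.47 in fatty liver under vehicle, against 7.83, 8.01 and 8.04 in healthy liver under anti-VEGF and 7.60, 10.21 and 7.91 in healthy liver under vehicle. All fatty liver arrays were above the healthy liver arrays of the same treatment. Group means were 10.82 ± 1.18 (fatty, anti-VEGF), 11.70 ± 0.35 (fatty, vehicle), 7.96 ± 0.12 (healthy, anti-VEGF) and 8.57 ± 1.42 (healthy, vehicle), and the differences between fatty and healthy liver were 3.13 (SE 0.68) under vehicle and 2.86 (SE 0.68) under anti-VEGF, below those of Cxcl3 and above those of the other 7 genes. In order of level, the arrays of each neighbouring pair of groups overlapped.

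Pf4, its neighbour on the chromosome, read 9.84, 11.07 and 10.26 in fatty liver under anti-VEGF and 11.13, 11.00 and 11.11 in fatty liver under vehicle, against 8.62, 8.51 and 8.19 in healthy liver under anti-VEGF and 8.68, 9.80 and 8.60 in healthy liver under vehicle. Every fatty liver array was above every healthy liver array, the nearest being 9.84 on anti-VEGF array 1 of fatty liver and 9.80 on vehicle array 2 of healthy liver. Mean levels were 10.39 ± 0.62 (fatty, anti-VEGF), 11.08 ± 0.07 (fatty, vehicle), 8.44 ± 0.22 (healthy, anti-VEGF) and 9.03 ± 0.67 (healthy, vehicle), and the treatments overlapped within each liver. The differences were 2.05 (SE 0.34) under vehicle and 1.95 (SE 0.34) under anti-VEGF. Anti-VEGF array 3 of fatty liver, which was low in Cxcl1, Cxcl2 and Cxcl3, differed from the mean of the other 2 arrays of its group by -0.19 in Pf4.

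Few platelet markers passed the test between the livers. Of the 15 platelet and megakaryocyte markers listed, 12 were on the array and 6 were tested; by limma none rose or fell between fatty and healthy liver under vehicle, and 2 fell under anti-VEGF, Gp9 by 0.75 and Itgb3 by 0.80 (adjusted p = 0.00231 and 0.00812). Without vehicle array 2 of healthy liver and anti-VEGF array 3 of fatty liver, 1 rose in each comparison, F2rl2, a thrombin receptor (by 1.59 and 1.45; adjusted p = 0.00428 and 0.00691). The mean of the 6 ranged from 5.57 to 6.31 in fatty liver under anti-VEGF and 5.95 to 6.30 in fatty liver under vehicle, against 5.93 to 6.06 in healthy liver under anti-VEGF and 5.70 to 6.68 in healthy liver under vehicle. Gp5, Gp6, Clec1b, Tubb1, Mmrn1 and Trpc6 stayed below the limit on all arrays. Of 13 macrophage markers tested, 12 rose in fatty liver under each treatment, beside 19.2% of all genes under vehicle and 18.2% under anti-VEGF. With the near-identical arrays averaged, 4 of these markers rose under vehicle and 7 under anti-VEGF. Under vehicle, 5 rose without the arrays high in Xist. Their mean was 11.00 to 11.42 in fatty liver under anti-VEGF and 11.32 to 11.45 in fatty liver under vehicle, against 9.09 to 9.13 in healthy liver under anti-VEGF and 9.26 to 10.23 in healthy liver under vehicle. The brightest macrophage rows were those of Cd68, C1qb, Lyz2 and Ms4a7, while Cd163 and Marco stayed below the limit. In these bulk tumours more cells of a type and more RNA per cell cannot be told apart, and the part of macrophages in the levels of Ppbp and Pf4 was not tested.

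Cxcl12, the stromal ligand, was low: 6.06, 4.97 and 5.04 in fatty liver under anti-VEGF and 4.80, 6.11 and 5.001 in fatty liver under vehicle, against 4.79, 4.74 and 4.92 in healthy liver under anti-VEGF and 4.95, 6.90 and 4.91 in healthy liver under vehicle. The high arrays were array 1 of fatty liver under anti-VEGF and array 2 of each vehicle group, and healthy liver under anti-VEGF had none. Means of 5.36 ± 0.61 (fatty, anti-VEGF), 5.31 ± 0.71 (fatty, vehicle), 4.82 ± 0.09 (healthy, anti-VEGF) and 5.58 ± 1.14 (healthy, vehicle) did not differ beyond the spread between arrays from their neighbours in order of level, whose arrays overlapped. The difference between fatty and healthy liver was -0.28 (SE 0.53) under vehicle, with overlapping arrays, and 0.54 (SE 0.53) under anti-VEGF, where the arrays did not overlap but the lowest fatty liver array exceeded the highest healthy liver array by 0.05. Without vehicle array 2 of healthy liver the vehicle difference was 0.38, of the opposite sign.

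Stromal markers were high on the same 3 arrays. The mean of 11 endothelial markers was 7.10, 5.87 and 5.80 in fatty liver under anti-VEGF and 6.10, 7.55 and 6.06 in fatty liver under vehicle, against 5.47, 5.52 and 5.62 in healthy liver under anti-VEGF and 5.54, 8.79 and 5.61 in healthy liver under vehicle. Fibroblast markers, 11 of 12 tested, averaged 8.51, 7.30 and 7.52 in fatty liver under anti-VEGF and 6.97, 8.42 and 6.99 in fatty liver under vehicle, against 6.98 to 7.01 in healthy liver under anti-VEGF and 7.08, 9.75 and 7.01 in healthy liver under vehicle. Cdh5, Pecam1, Kdr and Esam had the brightest endothelial rows, and Pdgfra, Pdpn, Postn and Col3a1 the brightest fibroblast ones. Between fatty and healthy liver, 1 endothelial marker rose under vehicle and 2 under anti-VEGF, 1 fibroblast marker rose and 2 fell under each treatment, and 3 of 7 pericyte markers fell under vehicle and 2 under anti-VEGF. Among all genes tested, 19.2% rose and 30.4% fell under vehicle, and 18.2% rose and 27.6% fell under anti-VEGF. Nothing is read from these small marker counts. Leaving out 1 array at a time, 0 to 3 endothelial and 0 to 2 fibroblast markers rose under vehicle and 0 to 2 fibroblast markers rose under anti-VEGF. With the near-identical arrays averaged, 0 endothelial and 0 fibroblast markers passed by limma in either comparison. At an unadjusted p under 0.05, 0 endothelial and 2 fibroblast markers did under vehicle, and 2 endothelial and 0 fibroblast markers under anti-VEGF. Without vehicle array 2 of healthy liver and anti-VEGF array 3 of fatty liver, 3 endothelial markers rose under vehicle, Pecam1 (by 2.20) and Flt1 (by 1.25) among them. Of the fibroblast markers 2 then rose in each comparison, with Thy1 added (by 2.56 and 2.16). The part of these cells in the Cxcl12 values was not tested.

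Cxcr4, the signalling receptor for Cxcl12, did not follow its ligand. It had values of 10.65, 10.94 and 10.10 in fatty liver under anti-VEGF and 11.10, 11.20 and 11.06 in fatty liver under vehicle, against 8.02, 7.78 and 7.84 in healthy liver under anti-VEGF and 7.74, 9.53 and 8.05 in healthy liver under vehicle. All 6 fatty liver arrays were above all 6 healthy liver arrays, and within fatty liver the anti-VEGF arrays lay below the vehicle arrays. Group means were 10.56 ± 0.42 (fatty, anti-VEGF), 11.12 ± 0.08 (fatty, vehicle), 7.88 ± 0.13 (healthy, anti-VEGF) and 8.44 ± 0.96 (healthy, vehicle), and fatty exceeded healthy liver by 2.68 (SE 0.38) under vehicle and 2.69 (SE 0.38) under anti-VEGF.

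Ackr3, the scavenging receptor, was the single member lower in fatty liver under both treatments. Its values were 7.64, 8.01 and 8.23 in fatty liver under anti-VEGF and 7.77, 7.23 and 7.76 in fatty liver under vehicle, against 8.79, 8.92 and 8.96 in healthy liver under anti-VEGF and 8.55, 8.10 and 8.78 in healthy liver under vehicle. Within each treatment the fatty liver arrays lay wholly below the healthy liver arrays. Group means were 7.96 ± 0.30 (fatty, anti-VEGF), 7.58 ± 0.31 (fatty, vehicle), 8.89 ± 0.09 (healthy, anti-VEGF) and 8.48 ± 0.34 (healthy, vehicle), and fatty liver under anti-VEGF overlapped healthy liver under vehicle. The difference was -0.89 (SE 0.21) under vehicle and -0.94 (SE 0.21) under anti-VEGF, beside a median over all 13286 genes of -0.12 and -0.13.

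In the fit across all genes with limma, 7 of the 9 members passed an adjusted p of 0.05 between fatty and healthy liver under vehicle, 6 higher and 1 lower, and the same count and directions were found under anti-VEGF. Of all genes tested, 49.6% passed under vehicle (19.2% higher and 30.4% lower) and 45.8% under anti-VEGF (18.2% higher and 27.6% lower). The same shares stand beside every count of marker or pathway list genes called between the livers. The arrays did not overlap for 6 members that were higher and 1 that was lower under vehicle, and for 7 higher and 1 lower under anti-VEGF, where such genes made up 60.8% of all genes under vehicle (23.6% higher and 37.2% lower) and 58.5% under anti-VEGF (21.9% higher and 36.6% lower). The family was chosen on this comparison, so nothing is read from these counts. With the near-identical arrays averaged into 1 replicate none of the 9 passed by limma in either comparison, with 7 under vehicle and 4 under anti-VEGF at an unadjusted p under 0.05. Without the vehicle arrays high in Xist, with 1 array left in each vehicle group, 1 member passed under vehicle, Cxcr4, and 5 under anti-VEGF. Leaving out any array of healthy liver under anti-VEGF, or array 1 or 2 of fatty liver under anti-VEGF, left 4 members that passed under anti-VEGF, Ppbp, Pf4, Cxcr4 and Ackr3. These calls too come from the comparison that chose the family, so they neither test nor rank the members.

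**Figure D2:**
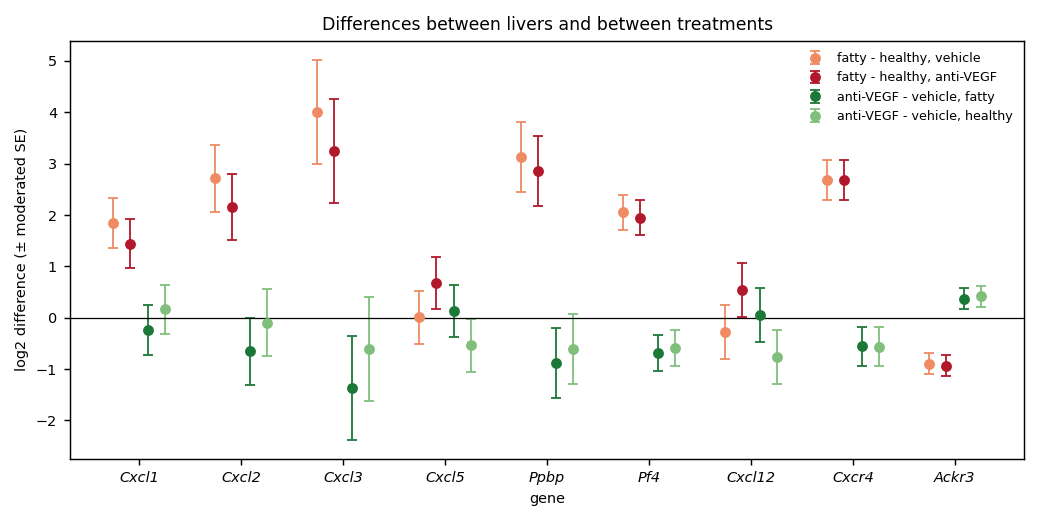
Log2 differences of the 9 genes with their moderated standard errors, for fatty minus healthy liver under vehicle and under anti-VEGF and for anti-VEGF minus vehicle in fatty and in healthy liver. The liver differences run from -0.94 (Ackr3) to 4.01 (Cxcl3), and the treatment differences lie between -1.36 and 0.42.

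Cxcr2, the receptor that the neutrophil attractants share, had values of 10.01, 7.91 and 5.46 in fatty liver under anti-VEGF and 8.15, 9.77 and 8.08 in fatty liver under vehicle, against 5.82, 5.40 and 5.61 in healthy liver under anti-VEGF and 5.25, 6.16 and 5.33 in healthy liver under vehicle. It rose in fatty liver under vehicle by 3.09 (SE 0.91; limma adjusted p = 0.0173), and under anti-VEGF the difference of 2.18 (SE 0.91) had an adjusted p of 0.0712. The anti-VEGF difference was 3.35 (adjusted p = 0.00213) without array 3 of fatty liver and 1.07 (adjusted p = 0.254) without array 1 of fatty liver. The call under vehicle was lost, with the difference still at 2.54 to 3.61, under 5 alternatives. These were without array 1 of healthy liver (2.92; adjusted p = 0.0566), array 3 of healthy liver (2.96; 0.0550) or array 2 of fatty liver (2.54; 0.0721). The others were with the near-identical arrays averaged (3.22; 0.160) and without the vehicle arrays high in Xist (3.61; 0.219). Cxcr1, a related receptor, stayed between 4.64 and 5.46 on all arrays, with differences of 0.24 (SE 0.18; adjusted p = 0.300) under vehicle and 0.40 (SE 0.18; adjusted p = 0.0943) under anti-VEGF.

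Neutrophil markers moved with Cxcl3 and Cxcr2. Of 20 listed, 13 were tested, and a marker could pass the filter on low values through fatty liver arrays alone. Among all genes tested, 19.2% rose in fatty liver under vehicle and 18.2% under anti-VEGF. Of the 13 neutrophil markers, 7 rose in fatty liver under vehicle, 6 rose under anti-VEGF and none fell. Their mean was 9.48, 7.82 and 6.30 in fatty liver under anti-VEGF and 8.04, 8.77 and 8.08 in fatty liver under vehicle, against 5.53 to 5.64 in healthy liver under anti-VEGF and 5.78, 6.62 and 5.91 in healthy liver under vehicle, so that anti-VEGF array 3 was again the lowest fatty liver array. The brightest rows of the list were those of Mmp8, Csf3r, Il1r2 and Mmp9. Ly6g, which defines mouse neutrophils, was at 7.39 on anti-VEGF array 1 of fatty liver and at 4.67 or below on the other 11 arrays, and Camp, Elane and Mpo stayed below the limit on all. Averaging the near-identical arrays left 1 neutrophil marker that rose under vehicle and 3 under anti-VEGF. None passed under vehicle without the arrays high in Xist. Without array 3 of fatty liver 11 rose under anti-VEGF. That array and vehicle array 2 of healthy liver were chosen by their Cxcl3 values, so calls gained without them are no independent support. Without both, 10 rose and 1 fell under vehicle, and 11 rose and 1 fell under anti-VEGF. The one that fell was Padi4, an enzyme of neutrophil extracellular traps, which differed by -0.80 and -0.37 (adjusted p = 0.000379 and 0.0186). In the fit with all arrays it differed by -0.45 and -0.54 (adjusted p = 0.182 and 0.113). The low level on anti-VEGF array 3 of fatty liver was not particular to neutrophil markers. The mean of the 13 tested T and NK cell markers was 8.27, 7.95 and 5.97 in fatty liver under anti-VEGF. It was 8.28 to 8.85 in fatty liver under vehicle and 5.22 to 6.08 in healthy liver. The part of neutrophils in the levels of the chemokines was not tested.

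**Figure D3:**
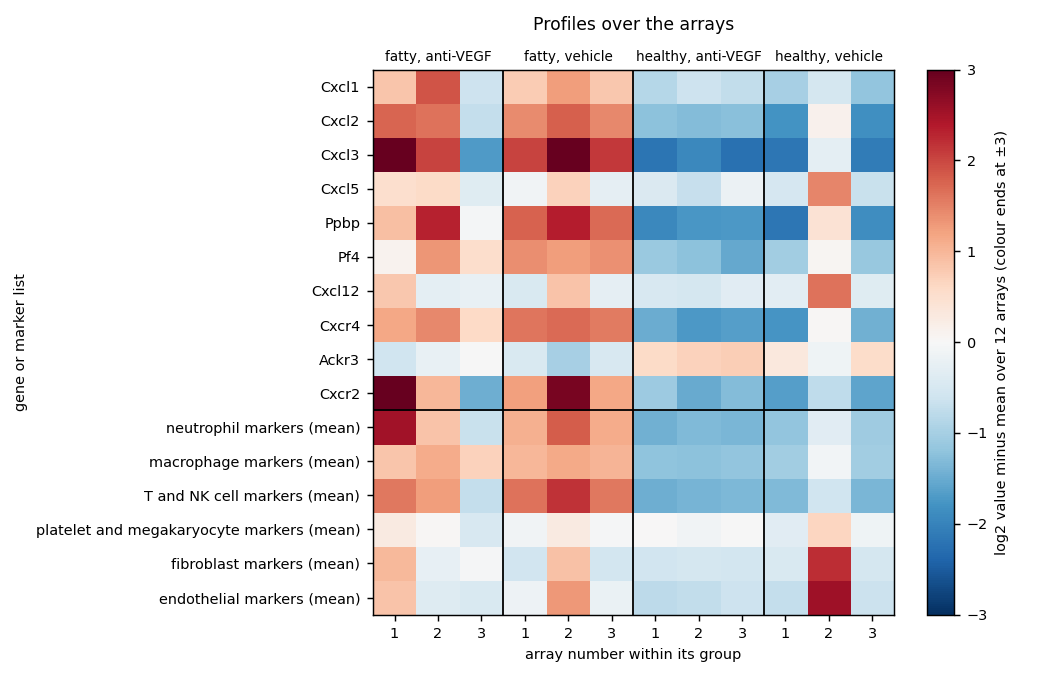
Log2 values centred on each row's mean over the 12 arrays, for the 9 genes, Cxcr2 and the mean of 6 marker lists (rows) on every array (columns, fatty liver anti-VEGF, fatty liver vehicle, healthy liver anti-VEGF and healthy liver vehicle from left to right), with the colour scale ending at 3 either way. Cxcl12 is high on the 3 arrays that are highest in endothelial and fibroblast markers. Cxcl3 is at 5.10 on fatty liver anti-VEGF array 3, where the neutrophil marker mean is 6.30 and the T and NK cell marker mean 5.97.

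The rest of the CXC family was given by a list of 14 further ligands and receptors, Cxcr1 and Cxcr2 included, of which 13 were tested and Cxcl15 was below the limit throughout. In fatty liver 7 rose under vehicle and 6 under anti-VEGF, and none fell; the median difference was 0.91 and 0.66. Among all genes tested, 19.2% rose under vehicle and 18.2% under anti-VEGF. Cxcl16, a membrane-bound ligand of Cxcr6, rose by 1.94 (SE 0.26; limma adjusted p = 0.000384) under vehicle and by 2.39 (SE 0.26; adjusted p = 8.73e-05) under anti-VEGF. Cxcr6 itself, a receptor of T and NKT cells, rose by 1.54 (SE 0.38; adjusted p = 0.00800) and 1.81 (SE 0.38; adjusted p = 0.00409). The interferon-induced ligand Cxcl10 rose by 1.25 (SE 0.30; adjusted p = 0.00653) under vehicle and 2.04 (SE 0.30; adjusted p = 0.000514) under anti-VEGF. Cxcr5, a receptor of B cells, rose by 0.91 (SE 0.17; adjusted p = 0.00243) under vehicle, and Cxcl11, another interferon-induced ligand, by 1.56 (SE 0.45; adjusted p = 0.0185) under anti-VEGF. Averaging the near-identical arrays left 1 of the 13 that rose in each comparison. Under vehicle 1 rose and 1 fell without the arrays high in Xist. Under anti-VEGF 3 rose without array 2 of fatty liver and 10 without its array 3 and vehicle array 2 of healthy liver, with Cxcr1, Cxcr2, Cxcl13 and Cxcr5 added. All 13 tested T and NK cell markers rose in fatty liver under vehicle and 10 rose under anti-VEGF (3 and 1 with the near-identical arrays averaged). Under vehicle, 3 rose without the arrays high in Xist. The part of these cells in the differences was not tested.

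Most genes of the cytokines that induce the neutrophil attractants and of NF-kB signalling were higher too. From a list of 25 inducing cytokines, their receptors and NF-kB genes, 21 were tested: 15 rose and 1 fell in fatty liver under vehicle, and 14 rose and 2 fell under anti-VEGF, with a median difference of 1.19 and 1.11. Among all genes tested, 19.2% rose and 30.4% fell under vehicle, and 18.2% rose and 27.6% fell under anti-VEGF. Il1b, the interleukin-1 cytokine, rose by 3.25 (SE 0.56; limma adjusted p = 0.00138) under vehicle and 3.12 (SE 0.56; adjusted p = 0.00166) under anti-VEGF. Icam1, an adhesion molecule for white blood cells, rose by 2.14 (SE 0.33; adjusted p = 0.000774) and 2.61 (SE 0.33; adjusted p = 0.000200). Il1rn, which encodes the natural antagonist of the interleukin-1 receptor, rose by 2.26 (SE 0.36; adjusted p = 0.000962) and 2.75 (SE 0.36; adjusted p = 0.000269). Il1r1, the receptor itself, fell by 1.08 (SE 0.20; adjusted p = 0.00182) and 1.37 (SE 0.20; adjusted p = 0.000465). The other gene that fell under anti-VEGF was the NF-kB gene Rela. Its difference there ran from -0.32 to -0.26 with 1 array left out at a time. Under vehicle Rela differed by -0.16 (limma adjusted p = 0.0736). With the near-identical arrays averaged, none of the 21 passed the limma test in either comparison, with 12 under vehicle and 8 under anti-VEGF at an unadjusted p under 0.05. Without the vehicle arrays high in Xist, 3 rose and 1 fell under vehicle. Leaving out 1 array at a time, 10 to 17 rose under vehicle and 9 to 17 under anti-VEGF, with the 9 reached without array 1 or array 2 of healthy liver under anti-VEGF.

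A list of 15 genes that handle Cxcl12 or carry its signal had 13 tested members, of which 7 rose and 2 fell in fatty liver under vehicle and 5 rose and 3 fell under anti-VEGF. Among all genes tested, 19.2% rose and 30.4% fell under vehicle, and 18.2% rose and 27.6% fell under anti-VEGF. Arrb2, a beta-arrestin that uncouples and internalises receptors, rose by 1.35 (SE 0.13; limma adjusted p = 0.000136) under vehicle and 1.88 (SE 0.13; adjusted p = 1.49e-05) under anti-VEGF. Grk3, a kinase that marks receptors for arrestins, rose by 1.99 (SE 0.25; adjusted p = 0.000334) and 2.98 (SE 0.25; adjusted p = 3.14e-05). Rgs2, a regulator of G-protein signalling, rose by 2.05 (SE 0.38; adjusted p = 0.00222) and 2.25 (SE 0.38; adjusted p = 0.00132). The genes that fell were Mif and Hif1a under both treatments and Hmgb1 under anti-VEGF. With 1 array left out at a time, Mif ran from -0.44 to -0.33 and Hif1a from -0.35 to -0.25 under vehicle. Hmgb1 ran from -0.43 to -0.25 under anti-VEGF. With the near-identical arrays averaged, 2 of the 13 rose and none fell in each comparison, as under vehicle without the arrays high in Xist.

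Treatment with anti-VEGF gave no call among the 9 genes in either liver. By limma, 0 of the 9 passed in fatty liver, where 1 of 13286 genes did (0.00753%), and 0 of the 9 passed in healthy liver, where 0 genes did (0%). At an unadjusted p under 0.05 the counts were 0 of 9 members in both livers, and 778 and 1118 of all genes. In fatty liver the difference of Cxcl3 was -1.36 (95% interval -3.60 to 0.88; limma adjusted p = 0.805), that of Cxcl2 -0.66 (-2.09 to 0.78; adjusted p = 0.834), and that of Cxcl1 -0.25 (-1.32 to 0.83; adjusted p = 0.928). Each interval includes 0 and spans more than 2 log2 units, and fatty liver anti-VEGF array 3 sets the direction: without it and vehicle array 2 of healthy liver the 3 differences were 0.05, 0.15 and 0.42.

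Narrower intervals were found for Pf4, Cxcr4 and Ackr3 in fatty liver. Pf4 differed by -0.69 (-1.45 to 0.07; adjusted p = 0.795) between anti-VEGF and vehicle, Cxcr4 by -0.56 (-1.40 to 0.29; adjusted p = 0.799) and Ackr3 by 0.37 (-0.09 to 0.83; adjusted p = 0.795). Cxcr4 was the one member whose anti-VEGF arrays all lay below the vehicle arrays in fatty liver, as 4.99% of all genes did; another 3.07% lay wholly above, or 8.06% in either direction. Ppbp differed by -0.89 (-2.39 to 0.62), Cxcl5 by 0.13 (-0.997 to 1.26) and Cxcl12 by 0.05 (-1.13 to 1.23).

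In healthy liver the anti-VEGF arrays were close together and vehicle array 2 stood apart. Ackr3 was 0.42 higher under anti-VEGF (-0.04 to 0.88; limma adjusted p = 0.636), and its arrays did not overlap those of vehicle, as was so for 13.1% of all genes in that direction, 11.7% in the other and 24.8% in either. Cxcl12 differed by -0.77 (-1.94 to 0.41), Ppbp by -0.61 (-2.12 to 0.89), Cxcl3 by -0.60 (-2.84 to 1.64), Pf4 by -0.59 (-1.35 to 0.17) and Cxcr4 by -0.56 (-1.41 to 0.29). The differences of Cxcl5, Cxcl1 and Cxcl2 were -0.54, 0.16 and -0.09. Xist separated vehicle arrays 1 and 3 from all anti-VEGF arrays in both livers; without those vehicle arrays 3 members passed in healthy liver, Cxcl5, Cxcl12 and Cxcr4, in a comparison with vehicle array 2 alone whose spread comes from the anti-VEGF groups. In that same fit 754 genes passed, and 9 of 11 endothelial, 6 of 11 fibroblast and 7 of 13 macrophage markers fell with treatment. The part of Xist, or of what it marks, in the treatment differences was not tested.

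Whether the treatment difference depended on the liver was tested as an interaction. By limma, 0 of the 9 members and 0 of all genes passed (0%), with 0 members and 677 genes at an unadjusted p under 0.05. The interaction was -0.76 (95% interval -3.93 to 2.41) for Cxcl3 and 0.82 (-0.85 to 2.48) for Cxcl12, the largest in each direction, and 0.00 (-1.20 to 1.20) for Cxcr4. Among the tested genes of the 4 pathway lists, 0 rose or fell with treatment in either liver.

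The genes most like Cxcl3, Cxcl12 and Cxcr4 were found by the root mean square difference of centred log2 values over the 12 arrays, among 13286 genes. For Cxcl3 these were Trem1 (0.186), an activating receptor of neutrophils and monocytes, then Plac8 (0.277), Ly6a2 (0.280), Ifitm6 (0.282) and Chil3 (0.301). Trem1 had values of 10.42, 9.27 and 5.68 in fatty liver under anti-VEGF and 9.06, 10.54 and 8.97 in fatty liver under vehicle, against 4.96, 5.21 and 5.25 in healthy liver under anti-VEGF and 5.04, 6.87 and 5.46 in healthy liver under vehicle. Cxcl12 was most like Hey1 (0.153), a transcription factor induced by Notch, Prss23 (0.161), Bicc1 (0.193), Tpbg (0.195) and Col15a1 (0.196), a basement membrane collagen. The closest to Cxcr4 were Havcr2 (0.166), an inhibitory receptor of T and myeloid cells, Milr1 (0.166), Pid1 (0.169), the chemokine Ccl6 (0.185) and Ggh (0.192). Among the members, Cxcr4 lay closer to Pf4 (0.444), Ppbp (0.448) and Cxcl2 (0.479) than to its own ligand Cxcl12 (1.36) or to Ackr3 (1.96). This measure depends on the size of a gene's changes as well as on their pattern.

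On chromosome 5 lie 6 of the 9 genes in 1 cluster, in the RefSeq order Cxcl5, Ppbp, Pf4, Cxcl3, Cxcl15, Cxcl1 and Cxcl2, with Cxcl15 among them. Cxcl12 is on chromosome 6, and Cxcr4 and Ackr3 are on chromosome 1. Next to Cxcl2 lie Mthfd2l, an enzyme of folate metabolism, and then the growth factor genes Epgn, Ereg, Areg and Btc. Of 9 listed neighbours 4 were tested, and none rose with all arrays in the fit. Ereg, a ligand of the epidermal growth factor receptor, fell in fatty liver by 1.08 (SE 0.28; limma adjusted p = 0.0101) under vehicle and by 1.27 (SE 0.28; adjusted p = 0.00522) under anti-VEGF. Mthfd2l fell by 0.94 (SE 0.24; adjusted p = 0.00919) under vehicle and differed by -0.63 (SE 0.24; adjusted p = 0.0537) under anti-VEGF. Rassf6, on the other side of Cxcl5, reached at most 3.60 on any array. With the near-identical arrays averaged, none of the 4 passed by limma, with 2 under vehicle and 1 under anti-VEGF at an unadjusted p under 0.05. Without array 3 of fatty liver under anti-VEGF, 3 fell under anti-VEGF. With vehicle array 2 of healthy liver left out as well, Parm1 rose under vehicle by 0.42 (adjusted p = 0.0250) and Btc fell by 0.50 (adjusted p = 0.0145).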

How the data were processed

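The values were log2 expression values per array row, deposited by the authors as 1 table of 12 arrays; per the submitters' processing notes they were made with Affymetrix Expression Console. The log2 scale is read from the range of the values (1.82 to 14.46); the sources used here give no normalization method, and the array medians lay between 4.88 and 4.99, so whether columns were centred is unknown. Scanner files were not used here, so depth and background are unknown and the number of arrays limits the precision.

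Of 41345 rows, 23521 have 1 gene symbol in the platform annotation, 1814 have several and 16010 have none; rows with 1 symbol gave 22180 genes, by the row with the highest mean where a gene had several (1082 genes). Genes above the table's median on at least 3 arrays were tested with limma 3.58.1 in R 4.3.3, with group means for all 12 arrays (8 residual and 2.40 prior degrees of freedom) and Benjamini-Hochberg adjustment over 13286 genes at 0.05. The fit was tested on simulated data with independent noise on every array, which does not check the effect of near-identical arrays on the p-values. The members, the gene lists and the alternatives were chosen with earlier results of these data known. Named beside the members are, per list and comparison, up to 4 genes with the smallest p, Cxcr1 and Cxcr2, the 5 genes nearest in pattern to Cxcl3, Cxcl12 and Cxcr4, the marker genes with the brightest rows and, chosen after their values were seen, list genes called only without the arrays that stand apart. Rela, Mif, Hif1a and Hmgb1 are named because they fell, also after their values were seen. Groups share replicate numbers, but the labels do not say that a number pairs mice. Deviations of same-numbered arrays correlated at over 0.1 in every pair between the vehicle groups of the livers alone (0.536, 0.701 and 0.549). There array 1 of 1 liver and array 3 of the other correlated as well (0.553 and 0.574), so a shared number was not needed. The main fit therefore has no block.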

Additional observations from a re-analysis of the deposited data

How the results depend on the processing

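Over all alternatives, 197 recomputed counts stayed within 1.5 times of the reported one and 43 did not. For treatment and interaction the members' differences kept their direction and side of the threshold 577 times and turned direction 65 times. They passed the threshold with their direction kept 3 times. Cxcl1 with array weights, counted among those that turned, passed it as well. Between livers, where members have no test, 418 differences moved by less than the spread between arrays and 12 by more. Leaving out an array outside the comparison, or changing the filter or the variance, cannot move a difference. These tallies are therefore no measure of stability. Of the 7 calls recomputed under 24 alternatives, 13 of 168 were lost under vehicle and 26 of 168 under anti-VEGF. None of the called members turned direction. These calls come from the comparison that chose the family, and many alternatives left the difference unchanged. The shares kept are therefore no support. The calls gained, 1 under vehicle and 2 under anti-VEGF, were all of Cxcl5. They came without the arrays that stand apart and, under anti-VEGF, with array weights as well. With the near-identical arrays averaged, where the 3 arrays of healthy liver under anti-VEGF become 1 replicate assumed to vary like the other groups, 721 genes passed between the livers under vehicle and 510 under anti-VEGF, 0 members passed in each, and 0 genes passed for treatment in fatty liver; Cxcl5 (-0.0138) and Cxcl12 (-0.15) turned direction for treatment in fatty liver, and Ppbp (0.0359) and Pf4 (0.11) in the interaction. Without the vehicle arrays high in Xist, which leaves 1 array in each vehicle group with the spread taken from the anti-VEGF groups, 1057 genes and 1 member passed between livers under vehicle, 754 genes and 3 members for treatment in healthy liver, 0 genes in fatty liver and 19 in the interaction; Cxcl5 (-0.45) and Cxcl12 (-0.75) turned in fatty liver, Cxcl1 (-0.22) in healthy liver, and Cxcl2 (0.50), Ppbp (0.96) and Pf4 (0.76) in the interaction. Array weights gave 1848 genes and 1 member (Cxcl1) for treatment in fatty liver, 1661 genes in healthy liver, 9884 between livers under anti-VEGF and 1477 in the interaction; Cxcl1 (0.94), Cxcl2 (0.11) and Ppbp (0.41) turned in fatty liver, Cxcl2 (0.49), Cxcl5 (0.0305) and Ppbp (0.14) in healthy liver, Cxcl1 (0.62), Ppbp (0.27), Pf4 (0.10) and Cxcr4 (-0.13) in the interaction, and Cxcr1 (-0.0265) between livers under vehicle. The fit without vehicle array 2 of healthy liver and anti-VEGF array 3 of fatty liver was chosen after seeing the data. For treatment it gave 0 genes in fatty liver, 39 in healthy liver and 1 in the interaction. Between livers it gave 8110 genes under vehicle and 8050 under anti-VEGF. There Cxcl1 (0.42), Cxcl2 (0.15) and Cxcl3 (0.0521) turned in fatty liver, and Cxcl2 (0.56), Cxcl3 (0.0148), Cxcl5 (0.14) and Ppbp (0.20) in healthy liver. In the interaction Cxcl1 (0.0625), Cxcl3 (0.0373), Cxcr4 (-0.31) and Ackr3 (0.00667) turned. Genes called for treatment in healthy liver were 47 and in fatty liver 0 with the groups of the contrast alone, and in healthy liver 2 under a stricter filter on low values, 7 with centred columns and 9 with a trended, robust variance. The mean of a gene's rows turned Hif1a to 0.0219 between livers under vehicle. With replicate number as a block, 0 genes passed for treatment in fatty liver, against 1 without it, 7 members passed between livers under each treatment, and no other call on the members changed; outside the vehicle groups same-numbered arrays did not all deviate together. The cause of these changes was not tested.

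Leaving out 1 array at a time gave 0 to 11 genes for treatment in fatty liver and 0 to 41 in healthy liver. Between livers under anti-VEGF, where members have no test, 4 to 7 members passed. The 4 were reached without any 1 array of healthy liver under anti-VEGF, or without array 1 or 2 of fatty liver under anti-VEGF. For treatment in fatty liver the ranges were -0.84 to 0.42 for Cxcl1, -1.09 to 0.15 for Cxcl2, -2.33 to 0.0521 for Cxcl3, -0.0496 to 0.44 for Cxcl5 and -0.30 to 0.46 for Cxcl12. In healthy liver they were -0.43 to 0.56 for Cxcl2, -0.93 to 0.0148 for Cxcl3, -0.92 to 0.14 for Cxcl5 and -1.10 to 0.20 for Ppbp. In the interaction they were -1.004 to 0.25 for Cxcl1, -1.22 to 0.24 for Cxcl2, -1.72 to 0.65 for Cxcl3, -0.00793 to 1.05 for Cxcl5, -1.09 to 0.28 for Ppbp, -0.49 to 0.17 for Pf4, -0.54 to 0.35 for Cxcr4 and -0.22 to 0.14 for Ackr3. Between livers under vehicle Cxcl5 ran from -0.37 to 0.69 and Cxcl12 from -0.68 to 0.38. With 3 arrays a group, and background not measured here, values near the limit of 4.93 (Cxcl5, Cxcl12 and Cxcl3 in healthy liver) may understate differences.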

Other observations

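Arrays 1 and 2 of fatty liver under anti-VEGF split the family. Array 1 minus array 2 was -1.39 for Ppbp, -1.22 for Pf4 and -1.07 for Cxcl1, and 1.03 for Cxcl3, 1.09 for Cxcl12 and 2.10 for Cxcr2, while Cxcl2 differed by 0.13. The neutrophil marker mean was 9.48 on array 1 and 7.82 on array 2, and the calprotectin gene S100a8 was at 9.75 and 6.06. Ly6g was at 7.39 and 3.63. These are single arrays, with no test.

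Endothelial Cdh5 was at 11.03 on vehicle array 2 of healthy liver, beside 8.03 and 7.78 on the other arrays of that group, and at 9.66 on vehicle array 2 and 9.36 on anti-VEGF array 1 of fatty liver. Pecam1, an adhesion molecule of endothelium, platelets and white blood cells, was at 8.94, 8.96 and 9.26 in fatty liver under anti-VEGF and 8.29, 8.90 and 8.28 in fatty liver under vehicle, against 6.35, 6.26 and 6.30 in healthy liver under anti-VEGF and 6.21, 9.64 and 6.36 in healthy liver under vehicle.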
